A study of Homo sapiens with 12 samples.

Results

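The guanylate-binding proteins (GBPs) are large interferon-induced GTPases, and the 7 human genes GBP1 to GBP7 lie side by side on chromosome 1. They were found by gene identifier in the count table of an RNA sequencing experiment, 7 of 58051 genes, and all 7 were among the 17119 genes with enough counts to be tested. The experiment used the leukaemia-derived monocytic line THP-1, either wild type or with SDC3 knocked out by CRISPR/Cas9. SDC3 is the gene of syndecan-3, a transmembrane proteoglycan whose chains are heparan sulphate, and the stated question was how it affects pro-inflammatory functions of macrophages. There were 4 groups of 3 libraries: SDC3-knockout cells given recombinant human interferon gamma (IFN-γ), wild-type cells given IFN-γ, SDC3-knockout cells without it and wild-type cells without it. All of them, untreated cells included, had first been turned into macrophage-like cells with 20 ng/ml of the phorbol ester PMA for 24 h, and the medium was changed before IFN-γ was added the next day. How much IFN-γ was given and for how long was not in the labels, nor was how many edited lines there were, so an effect of the genotype and a difference between lines cannot be told apart. Whether replicate libraries came from separate cultures was not said either. The p-values therefore measure the spread between these samples only, and that spread may be technical.

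In macrophages, IFN-γ binds the receptor chains IFNGR1 and IFNGR2, which signal through the kinases JAK1 and JAK2. The signal reaches promoters at gamma-activated sites (GAS) and, through the transcription factor IRF1, at interferon-stimulated response elements (ISRE), and GBP promoters are textbook examples of genes that use both. The GBP proteins assemble on bacteria and on the membranes of pathogen vacuoles: GBP1 binds lipopolysaccharide and starts the coat, GBP2, GBP3 and GBP4 join it, and the coat brings the inflammatory caspase CASP4 to its ligand.

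By the bounds in the deposited table (hg38), the cluster ran over 379.8 kb of chromosome 1, from GBP3 (89006666 to 89022894) and GBP1 (89052319 to 89065360) through GBP2 (89106132 to 89150456), GBP7 (89131751 to 89176040) and GBP4 (89181148 to 89198932) to GBP5 (89258950 to 89272804) and GBP6 (89364058 to 89386461). GBP6 is on the plus strand and the other 6 are on the minus strand. All 7 are protein-coding in GENCODE 29 with the same bounds, and each value below counts reads on the exons of 1 gene. GBP2 and GBP7 overlap and share 621 exon bases, and 21.3% of the 100-base stretches of the GBP7 transcripts also occur in GBP2 transcripts, against 8.42% of those of GBP2 in GBP7. GBP1 shared 1.09% of its 100-base stretches with the pseudogene GBP1P1 that follows the cluster, and GBP3, GBP4, GBP5 and GBP6 shared none. Of 50-base stretches, GBP1 shared 6.6% with GBP1P1, GBP3 3.7% with GBP1 and GBP4 0.309% with GBP7. GBP5 and GBP6 shared none at that length either. Reads on the common stretches could be assigned to either gene of such a pair or left out of both. The level of GBP7 beside the far more abundant GBP2 is therefore uncertain.

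RefSeq start-site windows (build GRCh38.p14, from 250 bases before to 50 after the start) were read for GBP1, GBP3, GBP4, GBP6 and GBP7. Those of GBP1, GBP3 and GBP4 are shown for their matches to the letters below, and that of GBP7 for having none. Capitals mark a GAS (TTCNNNGAA) or an ISRE core (GAAA, any 2 bases and GAAA), searched on both strands, and each window is printed 5′ to 3′ on the strand of its gene.
GBP1, chr1:89065159-89065458, minus strand: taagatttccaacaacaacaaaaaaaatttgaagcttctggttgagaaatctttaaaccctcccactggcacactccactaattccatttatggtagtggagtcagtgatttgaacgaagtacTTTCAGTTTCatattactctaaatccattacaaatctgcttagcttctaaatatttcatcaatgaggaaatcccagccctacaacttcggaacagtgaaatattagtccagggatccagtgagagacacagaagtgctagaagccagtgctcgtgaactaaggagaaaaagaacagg
GBP3, chr1:89022817-89023116, minus strand: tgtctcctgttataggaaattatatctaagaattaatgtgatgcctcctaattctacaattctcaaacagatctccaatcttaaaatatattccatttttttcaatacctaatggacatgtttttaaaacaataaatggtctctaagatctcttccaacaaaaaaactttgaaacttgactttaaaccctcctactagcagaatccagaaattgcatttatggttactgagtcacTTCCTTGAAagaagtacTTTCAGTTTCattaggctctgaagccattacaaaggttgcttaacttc
GBP4, chr1:89198893-89199192, minus strand: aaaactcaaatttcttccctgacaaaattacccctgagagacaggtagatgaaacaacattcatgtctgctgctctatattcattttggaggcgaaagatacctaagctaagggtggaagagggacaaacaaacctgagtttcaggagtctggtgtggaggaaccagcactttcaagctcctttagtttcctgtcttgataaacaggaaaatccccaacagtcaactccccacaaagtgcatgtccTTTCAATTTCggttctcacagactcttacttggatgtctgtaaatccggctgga
GBP7, chr1:89175954-89176253, minus strand: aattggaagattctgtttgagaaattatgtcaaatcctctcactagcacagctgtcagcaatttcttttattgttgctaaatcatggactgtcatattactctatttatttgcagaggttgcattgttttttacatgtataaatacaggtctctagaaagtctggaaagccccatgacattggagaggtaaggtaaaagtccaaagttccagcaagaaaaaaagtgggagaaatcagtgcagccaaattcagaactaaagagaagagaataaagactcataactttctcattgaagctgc
The GBP1 window held an ISRE core on the opposite strand, as TTTCAGTTTC, that begins 127 bases before the start. The GBP3 window held the same 10 letters beginning 2 bases after the start and a GAS, TTCCTTGAA, 15 bases before it. GBP4 had an ISRE core, TTTCAATTTC, 4 bases before the start. The windows of GBP7 and GBP6 held neither motif in these letters, and those of GBP1 and GBP4 held no GAS in them. Other spellings of a GAS were not searched, so a window without a match may still hold one. The longest run common to the GBP1 and GBP3 windows was 19 bases, gaagtactttcagtttcat, and it contained the ISRE core. GBP1 and GBP7 shared 13 bases, tcatattactcta. Of 35116 RefSeq windows of the same length, 7.66% held a GAS, 3.57% an ISRE core and 0.439% both, and a match describes letters, not binding.

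Assigned counts ranged from 23616738 to 29426415 a library. The SDC3 transcript was reduced in the knockout, to 41.2% of wild type (with IFN-γ) and 20.6% (without), but was still counted in every knockout library. Of 11 monocyte and macrophage markers, 10 stood at 1 CPM (read counts per gene, scaled to a common library size) or more in each group. The other was CD68, at 0.131 CPM (knockout) and 0.278 CPM (wild type) with IFN-γ, and 0.131 and 0.540 CPM without it. With IFN-γ the 11 summed to 6136 to 6408 CPM (knockout) and 6968 to 7130.5 CPM (wild type). Without it they summed to 5411 to 5662 CPM (knockout) and 5882 to 6053 CPM (wild type). Not every marker rose with IFN-γ: LYZ fell from 896 to 230 CPM in the knockout and from 1295 to 533 CPM in the wild type. The 3 erythroid markers were at 0 everywhere, and no T-cell or NK-cell marker reached 1 CPM as a group mean. The 4 B-cell markers, of which MS4A1 was at 0 in every library, summed to 3.38 to 4.36 CPM in the knockout and 11.5 to 13.3 CPM in the wild type with IFN-γ, and without it the sums were 4.36 to 5.07 CPM in the knockout and 11.2 to 14.2 CPM in the wild type. The 4 endothelial markers summed to 1.30 to 1.63 CPM (knockout) and 2.43 to 2.89 CPM (wild type) with IFN-γ, against 4.87 to 5.40 CPM (knockout) and 13.1 to 14.8 CPM (wild type) without it. The 4 fibroblast markers summed to 20.2 to 22.6 CPM (knockout) and 16.1 to 16.6 CPM (wild type) with IFN-γ, against 11.2 to 14.4 CPM (knockout) and 8.12 to 9.16 CPM (wild type) without it. The 6 epithelial markers summed to 179.6 to 193 CPM in the knockout and 91.8 to 98.1 CPM in the wild type with IFN-γ. Without it the range was 39.8 to 41.9 CPM in the knockout and 27.3 to 29.4 CPM in the wild type. A few genes carried most of the endothelial, fibroblast and epithelial sums. In the treated knockout MUC1 stood at 147 CPM, CLDN7 at 36.7 CPM and COL1A1 at 17.4 CPM. EPCAM, KRT18, COL3A1 and DCN had no count there. VWF stood at 13.3 CPM in the untreated wild type. The part of these marker differences in the results was not tested.

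IFN-γ raised all 7 GBP genes in both knockout and wild-type cells, and GBP1, GBP5, GBP4 and GBP2 were then among the more abundant messages of the cell. The 7 genes together took 1.08% ± 0.0135 of all counts in the IFN-γ-treated knockout, against 0.0140% ± 0.000357 in the untreated knockout (SD, n = 3). In the wild type they took 0.875% ± 0.0201 with IFN-γ and 0.0115% ± 0.000510 without it. Summed CPM was 94.7-fold higher with IFN-γ in the knockout and 90.2-fold higher in the wild type. These are bulk libraries, in which fewer cells making a transcript and less transcript per cell cannot be told apart.

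By edgeR's quasi-likelihood test, 7 of 7 members were higher with IFN-γ in the knockout (adjusted p from 7.6e-41 to 6.3e-10) and 7 of 7 in the wild type (7.6e-41 to 7.4e-06). A gene is called here at an adjusted p under 0.05. Of all tested genes, 29.2% were called higher and 31.8% lower in the knockout (median log2 fold change -0.05), and 28.6% higher and 27.9% lower in the wild type (median -0.02). GBP6 and GBP7 were counted enough to be tested only because of the IFN-γ-treated libraries, so their calls add little to that count. Scaling by library totals alone moved the median gene to -0.35 in the knockout and -0.27 in the wild type and left 23.4% and 25.1% of the calls on the higher side, against 47.9% and 50.7% with TMM scaling. By upper-quartile scaling those shares were 36.4% and 37.5%. The members' changes are far larger than such shifts, and none of their calls was lost under either scaling.

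**Figure D1:**
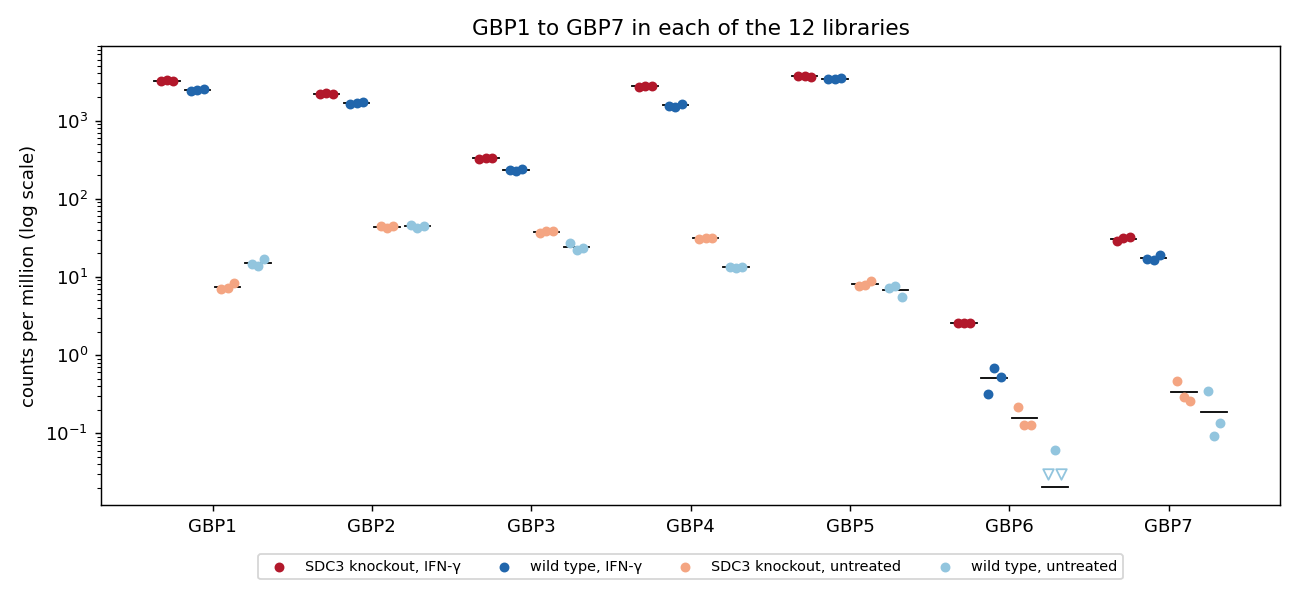
CPM (log scale) of each GBP gene in the 12 libraries, as points, with a black bar at the mean of each group of 3; open triangles mark libraries without a count, drawn at an arbitrary low position. Means with IFN-γ lie above untreated ones for every gene, and knockout means above wild-type means with IFN-γ. Without IFN-γ, GBP1 is lower in the knockout.

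GBP5, a prenylated member known to sit at the Golgi and to promote inflammasome assembly, had the largest response in both genotypes. With IFN-γ, GBP5 was at 3681, 3751 and 3635 CPM in the knockout libraries, against 3405, 3351 and 3503 CPM in the wild type. Untreated, GBP5 had 7.56, 7.84 and 8.91 CPM in the knockout and 7.17, 7.65 and 5.60 CPM in the wild type. The treated libraries stood far above the untreated ones, and the genotypes lay close together, overlapping without IFN-γ. The IFN-γ response of GBP5 was 454-fold in the knockout (log2 fold change 8.83, SE 0.06, adjusted p = 7.6e-41) and 502-fold in the wild type (8.97, SE 0.06, adjusted p = 7.6e-41), rank 15 and rank 11 of all tested genes by size of rise.

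GBP1, the farnesylated member that starts the coat, reached a similar level but from a baseline that differed between genotypes. With IFN-γ, GBP1 stood at 3192, 3346 and 3212 CPM in knockout libraries, against 2381, 2430.3 and 2540.0 CPM in wild-type libraries. Without it the order was turned, with 6.98, 7.21 and 8.39 CPM in the knockout and 14.4, 13.8 and 16.9 CPM in the wild type. In neither treatment did the genotypes overlap. The response was 431-fold in the knockout (log2 fold change 8.75, SE 0.06, adjusted p = 9.5e-41, rank 16) and 163-fold in the wild type (7.35, SE 0.06, adjusted p = 1.2e-39, rank 33).

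GBP4 and GBP2 join the coat that GBP1 begins, and GBP2 also acts with GBP5 against the protease furin, which many viral envelopes need. With IFN-γ, GBP4 reached 2705, 2769.95 and 2779 CPM in the knockout, with 1539, 1509 and 1651 CPM in the wild type. The untreated values of GBP4 were 30.6, 31.3 and 31.5 CPM in the knockout and 13.5, 12.9 and 13.4 CPM in the wild type. Knockout libraries were thus above wild-type libraries in both treatments, with no overlap. GBP4 rose 88.4-fold in the knockout (log2 fold change 6.47, SE 0.05, adjusted p = 7.6e-41) and 118-fold in the wild type (6.89, SE 0.05, adjusted p = 7.6e-41).

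For GBP2, IFN-γ-treated libraries held 2181, 2233 and 2197 CPM in the knockout and 1646, 1652 and 1738 CPM in the wild type. Untreated libraries held 44.9, 42.2 and 45.1 CPM in the knockout and 45.9, 42.4 and 44.2 CPM in the wild type. The genotypes were apart with IFN-γ and interleaved without it. Its response on the log2 scale was 5.64 in the knockout (SE 0.04, adjusted p = 7.7e-40) and 5.25 in the wild type (SE 0.04, adjusted p = 4.7e-39).

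GBP3, another coat member, had the smallest relative response. With IFN-γ, GBP3 was at 318, 335 and 329 CPM in knockout libraries, against 233, 228.5 and 239.6 CPM in wild-type libraries. Untreated knockout libraries had 36.8, 38.3 and 39.0 CPM and untreated wild-type libraries 27.4, 22.4 and 23.3 CPM. Knockout libraries were above wild-type ones in both treatments. GBP3 rose 8.60-fold in the knockout (log2 fold change 3.10, SE 0.05, adjusted p = 7.8e-31) and 9.62-fold in the wild type (3.27, SE 0.06, adjusted p = 9e-31).

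GBP7 and GBP6, the least studied members, stayed rare. GBP7 reached 28.7, 31.6 and 31.9 CPM in the IFN-γ-treated knockout and 17.2, 16.3 and 19.2 CPM in the treated wild type, against 0.468, 0.287 and 0.258 CPM in the untreated knockout and 0.343, 0.0925 and 0.134 CPM in the untreated wild type. Its rise was 91.1-fold in the knockout (log2 fold change 6.51, SE 0.17, adjusted p = 1.2e-25) and 94.4-fold in the wild type (6.56, SE 0.20, adjusted p = 1.3e-23), where single libraries left out moved the log2 fold change of GBP7 over 6.21 to 7.23, the highest without untreated wild-type replicate 1. GBP6 had 63, 63 and 68 counts in the treated knockout libraries and 8, 18 and 12 in the treated wild type, against 6, 4 and 4 in the untreated knockout and 0, 2 and 0 in the untreated wild type. A floor of 3 counts corresponds to 0.0925 to 0.130 CPM in a library, so the untreated levels of GBP6 and part of those of GBP7 are at the limit of detection.

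For GBP6 the summed counts give the ratio with its counting error. The treated knockout exceeded the untreated one 16.6-fold (194 against 14 counts, exact 95% interval 9.64 to 30.9), and the treated wild type exceeded the untreated one 22.6-fold (38 against 2 counts, 5.85 to 194). The intervals cover counting error only and may be too narrow, since the headers and the many even counts leave it possible that mates of a read pair were counted separately. Fitted log2 fold changes of GBP6 were 4.01 (SE 0.42, adjusted p = 6.3e-10) in the knockout and 4.25 (SE 0.73, adjusted p = 7.4e-06) in wild-type cells, and the fitted value against 2 counts depends on the prior count used. With single libraries left out the wild-type value of GBP6 ranged from 3.74 to 6.79, the highest without untreated wild-type replicate 2, the one with those 2 counts.

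IFN-γ also changed which GBP made up the pool. Levels of different genes were compared per length, as FPKM, here CPM per kilobase of exon. Such an order depends on the exon length counted for each gene. By CPM, GBP5 (8143 exon bases) stood above GBP1 (4992 exon bases) in both treated groups. In the untreated cells GBP2 and GBP3 led: GBP3 was first in the knockout at 8.85 ± 0.267 FPKM, ahead of GBP2 at 7.02 ± 0.263 and GBP4 at 5.08 ± 0.0801 (SD, n = 3). In the untreated wild type GBP2 was first at 7.03 ± 0.281 FPKM, then GBP3 at 5.67 ± 0.621, GBP1 at 3.02 ± 0.327 and GBP4 at 2.16 ± 0.0546. GBP1 and GBP4 thus held opposite places in the order of the untreated genotypes. GBP5, GBP7 and GBP6 followed in that order in both, from 0.995 to 0.0527 FPKM in the knockout and from 0.836 to 0.00688 FPKM in the wild type.

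With IFN-γ, GBP1 led in both genotypes, at 651 ± 16.8 FPKM in the knockout and 491 ± 16.3 in the wild type (SD, n = 3), which made it number 33 and number 42 of the 17119 tested genes. In the treated knockout GBP5 (453 FPKM) and GBP4 (449 FPKM) followed without differing beyond their spread, ahead of GBP2 (351 FPKM). In the treated wild type GBP5 (419.96 FPKM) came next, then GBP2 (267 FPKM) and GBP4 (256 FPKM), which overlapped. GBP3 (76.1 FPKM in the knockout, 54.4 in the wild type), GBP7 (12.5 and 7.15) and GBP6 (0.861 and 0.170) closed the order in both genotypes. Ranked against all tested genes by FPKM, GBP5, GBP4 and GBP2 were number 50, 51 and 80 in the treated knockout and number 56, 128 and 115 in the treated wild type.

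As shares of the summed GBP FPKM, GBP1 made up 32.6% ± 0.314 in the treated knockout and 32.8% ± 0.357 in the treated wild type, but 6.37% ± 0.476 in the untreated knockout and 16.1% ± 1.77 in the untreated wild type (SD, n = 3). GBP3 held 3.82% and 3.63% in treated knockout and wild-type cells, against 37.4% and 30.1% in untreated ones. GBP4 made up 22.5% ± 0.306 of the pool in the treated knockout and 17.1% ± 0.309 in the treated wild type, and GBP5 22.7% ± 0.243 and 28.1% ± 0.345. The shares of GBP1, GBP2 and GBP3 differed between the treated genotypes by less than 1 percentage point.

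**Figure D2:**
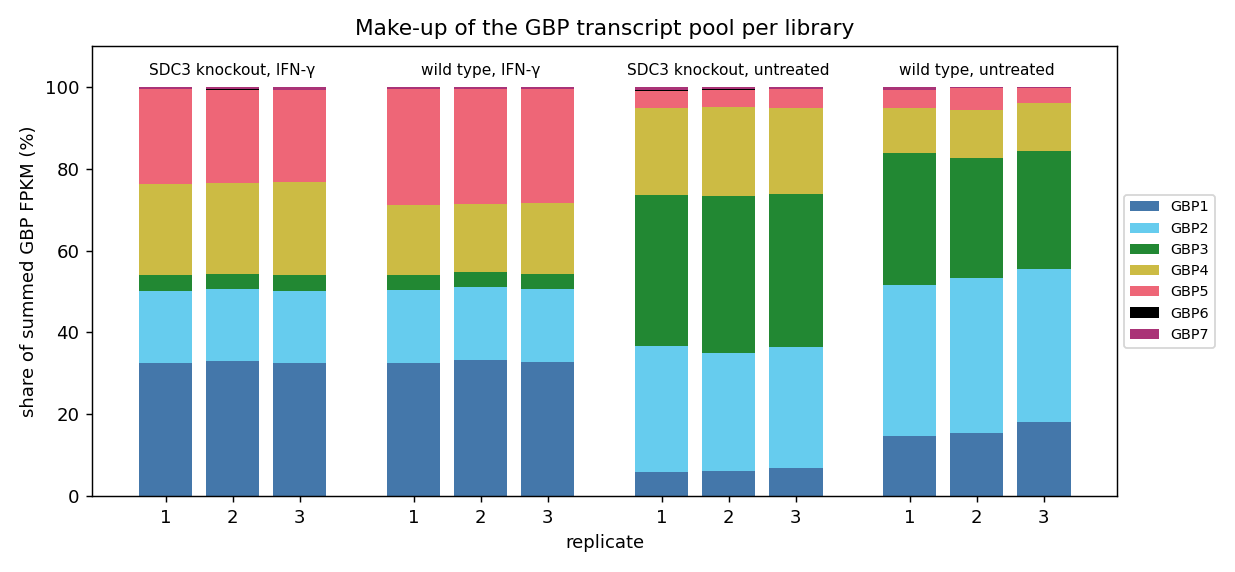
Share of each GBP gene (percent) in the summed GBP FPKM of each library, stacked by gene and grouped by genotype and treatment. GBP3 and GBP2 fill most of the untreated bars, GBP1, GBP5 and GBP4 most of the IFN-γ bars, and GBP4 takes 22.5% in the treated knockout against 17.1% in the treated wild type.

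The design text singles out the IFN-γ-treated cells, SDC3 knockout against wild type. All 7 GBP genes were higher in the treated knockout, from 1.08-fold for GBP5 to 5.03-fold for GBP6. Of all tested genes, 22.9% were called higher and 24.3% lower (median log2 fold change -0.01). GBP6 reached 10 counts in 3 treated knockout libraries, in 2 treated wild-type libraries and in no untreated one, so it entered the test through the group where it was high, and its call and p-value add little to that count. Summed GBP CPM was 12254 ± 189 in the knockout and 9367 ± 281 in the wild type (SD, n = 3), a 1.31-fold difference.

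GBP6 differed most, with 194 counts in the knockout and 38 in the wild type, a ratio of 5.03 (exact 95% counting interval 3.54 to 7.32; fitted log2 fold change 2.32, SE 0.36, adjusted p = 2.3e-06). GBP4 was 1.76-fold higher (log2 fold change 0.81, SE 0.03, adjusted p = 1.5e-18), and GBP7 had nearly the same fold, 1.75 (0.81, SE 0.10, adjusted p = 2.2e-08). GBP3 was 1.40-fold higher (0.49, SE 0.05, adjusted p = 2.4e-10). The coat-starting GBP1 was 1.33-fold higher (0.41, SE 0.04, adjusted p = 7.3e-10) and its partner GBP2 1.31-fold (0.39, SE 0.04, adjusted p = 5.5e-11).

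The difference of GBP5 was 1.08-fold (log2 fold change 0.11, SE 0.04, 95% interval 0.03 to 0.19, adjusted p = 0.0262), and its call rests on the settings. It was lost with upper-quartile scaling (adjusted p = 0.0692), with library totals alone (0.582, log2 fold change 0.03), with a floor of 5 CPM (0.0656), and without treated knockout replicate 1 (0.0606) or 2 (0.103) or treated wild-type replicate 1 (0.0687) or 2 (0.103). With library totals alone the share of higher genes among all calls was 35.6%, against 48.6% with TMM scaling. The other 6 members were called higher under both of these scalings.

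Without IFN-γ the genotypes differed in a mixed way: GBP4, GBP3, GBP5 and GBP6 were higher in the knockout, GBP1 was lower, and GBP2 and GBP7 were not called. That is 4 of 7 members higher and 1 lower, where 25.4% of all tested genes were called higher and 24.8% lower (median log2 fold change 0.01). Summed GBP CPM was 129 ± 3.44 in the knockout and 104 ± 4.75 in the wild type, 1.25-fold (SD, n = 3). The 4 comparisons of knockout, wild type, treated and untreated cells share libraries, so they are not independent of each other.

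GBP1 was the member that went down, to 50.1% of the wild-type level (log2 fold change -0.996, SE 0.07, adjusted p = 5.6e-13), with the highest knockout library at 8.39 CPM and the lowest wild-type library at 13.8 CPM. GBP4 was 2.35-fold higher (1.23, SE 0.05, adjusted p = 3.6e-19), and GBP3 was 1.57-fold higher (0.65, SE 0.06, adjusted p = 5.9e-11). For GBP2 the fold change was 1.00 (95% interval of the log2 fold change -0.09 to 0.09, adjusted p = 0.991), and the interval of the fold ran from 0.940 to 1.06.

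For GBP5, GBP6 and GBP7 the outcome without IFN-γ depended on single libraries. GBP5 was 1.19-fold higher in the knockout (log2 fold change 0.25, SE 0.08, adjusted p = 0.011) with overlapping libraries, and its call was lost without untreated knockout replicate 3 (0.108), without untreated wild-type replicate 3 (0.231) and when only the compared libraries were fitted (0.109). GBP6 had 14 counts in the knockout and 2 in the wild type, a ratio of 6.87 (exact 95% counting interval 1.58 to 62.3; fitted adjusted p = 0.0167). Its call was lost without untreated knockout replicate 1 (0.06), untreated wild-type replicate 1 (0.0584) or untreated wild-type replicate 3 (0.0731), and with only the compared libraries (0.0523). GBP7 had 30 counts in the knockout and 16 in the wild type (log2 fold change 0.86, 95% interval -0.04 to 1.76, adjusted p = 0.106), and it was called without untreated wild-type replicate 1 (1.53, adjusted p = 0.015).

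The IFN-γ responses of the genotypes were then compared directly, as the log2 response in the knockout minus that in the wild type. GBP1 responded more strongly in the knockout by 1.40 (SE 0.08, adjusted p = 6.4e-14), a 2.65-fold larger fold change, and GBP2 by 0.39 (SE 0.06, adjusted p = 3.2e-06). GBP4 responded less strongly, by -0.42 (SE 0.06, adjusted p = 6.5e-06), although its level was higher in the knockout in both treatments. So 2 of 7 members had a larger and 1 a smaller response, against 7.61% and 7.86% of all tested genes (median -0.03). With library totals alone 35.0% of all calls were on the higher side, against 49.2% with TMM scaling, and the 3 members kept their calls.

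The other 4 members gave no call. For GBP3 the difference was -0.16 (95% interval -0.31 to -0.01, adjusted p = 0.161), and it was called without untreated wild-type replicate 1 (-0.25, adjusted p = 0.00806). For GBP5 it was -0.14 (95% interval -0.33 to 0.04, adjusted p = 0.343). The intervals of GBP6 (-1.53 to 1.05) and GBP7 (-0.78 to 0.68) were too wide to show a difference of the size seen for GBP2 or GBP4. The larger response of GBP1 in the knockout came with both a lower untreated level and a higher treated level, while that of GBP2 came with a higher treated level alone.

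**Figure D3:**
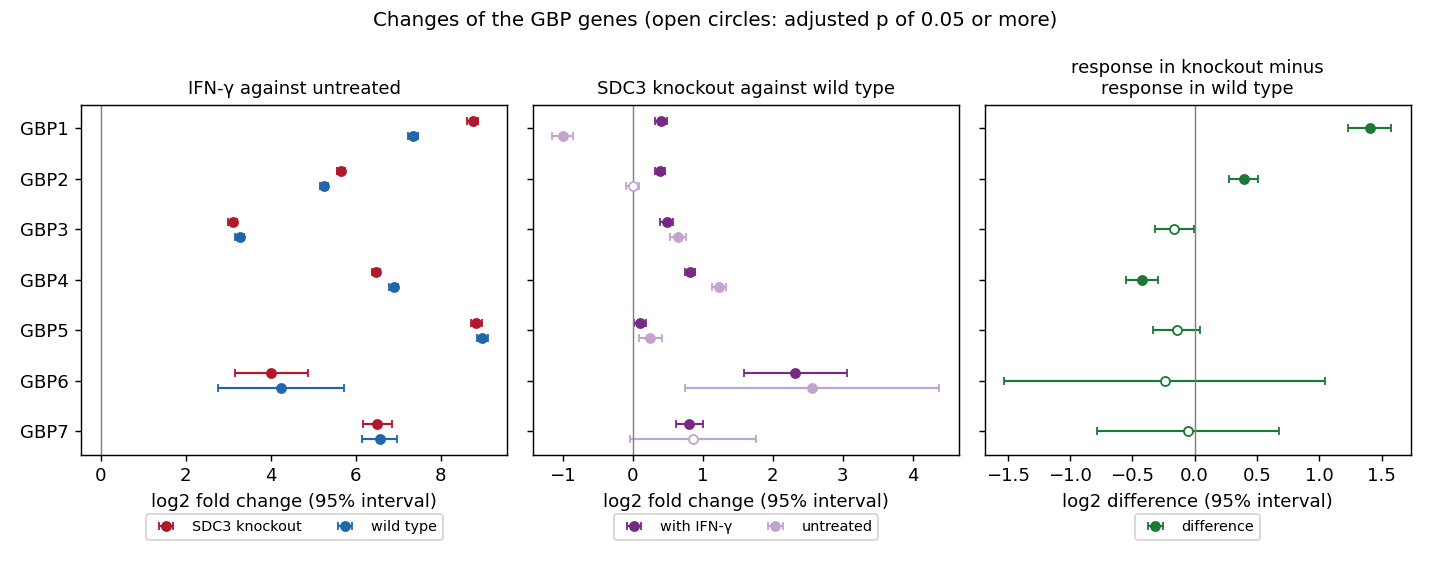
Log2 fold changes with 95% intervals of the 7 GBP genes for IFN-γ against untreated (left), knockout against wild type (middle) and the difference of the IFN-γ responses (right); open circles were not called. GBP1 is the member that lies below 0 in the untreated knockout (-0.996) and the one with the largest difference of responses (1.40).

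Most neighbours of the cluster responded far less than its members, whose log2 fold changes with IFN-γ were between 3.10 and 8.83 in the knockout and between 3.27 and 8.97 in the wild type. The 20 tested genes nearest to it, 10 on either side, had a median log2 fold change with IFN-γ of 0.41 in the knockout (13 higher, 2 lower) and 0.45 in the wild type (11 higher, 1 lower), where 29.2% and 28.6% of all tested genes were called higher. Without the pseudogene GBP1P1 the medians of the other 19 were 0.39 in the knockout and 0.35 in the wild type. GBP1P1 was the exception, and it lies 21.2 kb beyond the end of GBP6. GBP1P1 stood at 219, 234 and 230.6 CPM in the treated knockout and 164, 159.9 and 162 CPM in the treated wild type, against 0.252, 0.383 and 0.484 CPM in the untreated knockout and 0.381, 0.339 and 0.537 CPM in the untreated wild type. It rose by 9.22 (SE 0.10, adjusted p = 7.8e-37) in the knockout and 8.58 (SE 0.10, adjusted p = 9.1e-36) in the wild type on the log2 scale. Some of its reads could belong to GBP1, with which it shares 2.34% of its 100-base stretches and 14.1% of its 50-base stretches.

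Next to GBP3, the genes KYAT3, GTF2B and RBMXL1 rose as well, but modestly. KYAT3, an aminotransferase gene, had log2 fold changes of 1.31 in the knockout and 1.12 in the wild type. The general transcription factor gene GTF2B had 1.28 and 1.26, and RBMXL1, whose bounds overlap those of KYAT3, 1.26 and 1.00. Scarcer neighbours also moved. LINC01140 fell from 1.14 to 0.344 CPM in the knockout and from 2.16 to 0.312 CPM in the wild type. A gene without a symbol, starting at 87805286, rose from 0.492 to 1.58 CPM in the knockout and from 0.308 to 0.993 CPM in the wild type. Between genotypes, 6 of the 20 neighbours were higher and 1 lower in the knockout with IFN-γ (median 0.11), where 22.9% of all tested genes were called higher and 24.3% lower. Without IFN-γ 3 were higher and 2 lower (median 0.05), where the shares of all genes were 25.4% and 24.8%. GBP1P1 was 1.41-fold higher in the treated knockout (log2 fold change 0.50, SE 0.05, adjusted p = 9.3e-11) and was not called in the untreated one (-0.15, 95% interval -0.77 to 0.47, adjusted p = 0.749). In the difference of responses 2 neighbours were higher and 1 lower, where 7.61% of all tested genes were called higher and 7.86% lower. The 3 calls fell to 1 without treated knockout replicate 2, untreated knockout replicate 2, treated wild-type replicate 1 or untreated wild-type replicate 3.

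**Figure D4:**
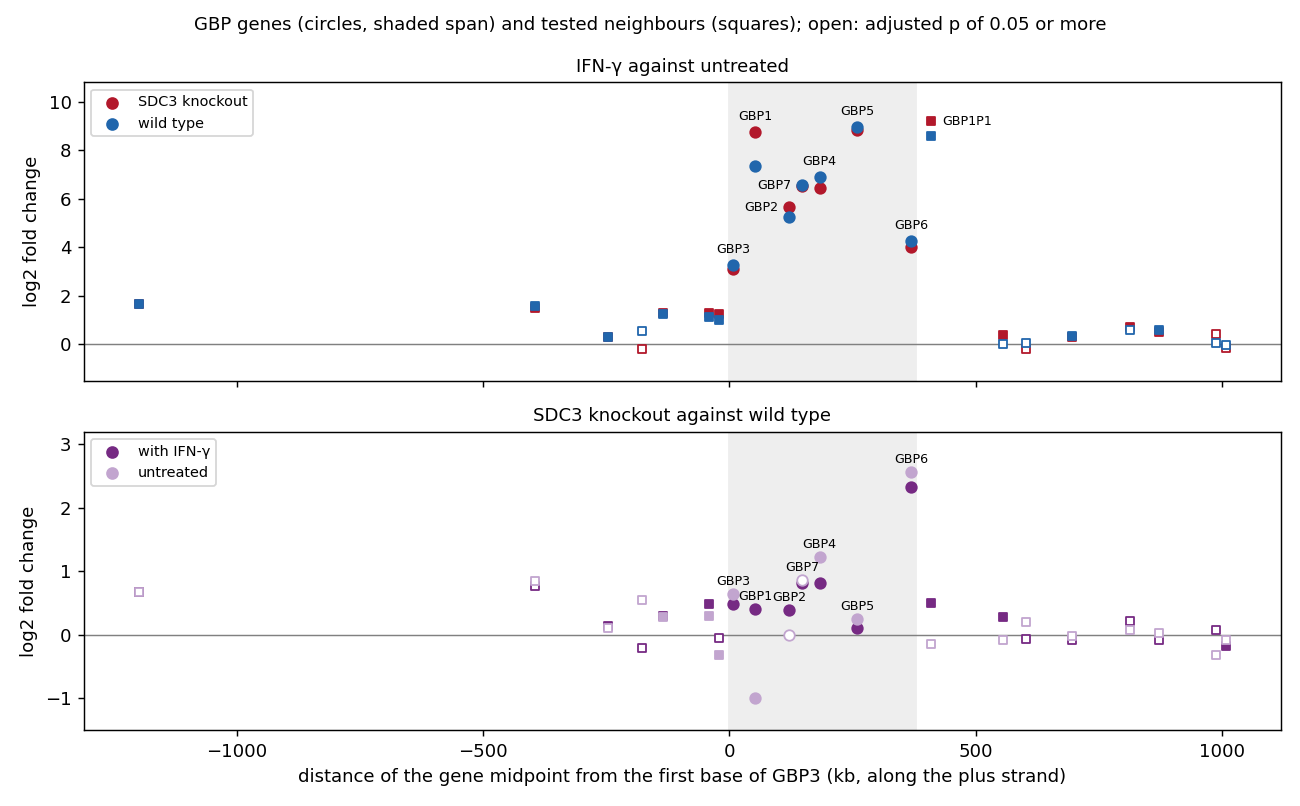
Log2 fold changes of the GBP genes (circles) and of tested neighbours (squares) against the distance of the gene midpoint from the first base of GBP3 in kb; open symbols were not called, the GBP cluster is shaded and 5 more distant neighbours are not drawn. With IFN-γ the GBP genes and the pseudogene GBP1P1 just outside the cluster stand well above the other 19 neighbours, whose median was 0.39 in the knockout and 0.35 in the wild type.

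Among GBP1 to GBP5, which were well counted in every group, GBP1 and GBP5 had the most alike profiles over the 12 libraries (root mean square distance 0.62 on the centred log2(CPM + 0.5) scale), and GBP3 and GBP5 were farthest apart (2.83). GBP7 and GBP2 were at 0.31, but the added 0.5 CPM flattens the profile of GBP7, which was below 0.5 CPM without IFN-γ. Of other genes, the profile nearest to GBP1 was that of its pseudogene GBP1P1 (0.34), followed by HAPLN3 (0.43). APOL4 (0.27) and IFI44L (0.45) were among the 3 nearest to GBP5. GBP2 was closest to IFIT3 (0.13), TNFSF10 (0.17) and ANKRD22 (0.18), and GBP3 to SAMD9L (0.12), JAK2 (0.13) and GIMAP8 (0.13). The DNA sensor gene AIM2 (0.32), IFI27 (0.34) and IFITM1 (0.34) were nearest to GBP4. For the rare GBP6 (RELB, PLCB1 and IL12RB2, 0.21 to 0.28) and GBP7 (ASNS, SECTM1 and PSAT1, 0.18 to 0.26) the same flattening applies, so the likeness says less. These distances mostly reflect the size of the IFN-γ response and are given as a description.

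A list of 16 genes drawn up around the IFN-γ signal that drives GBP transcription was followed. IFN-γ raised 14 and lowered 1 of them in either genotype (median log2 fold change 1.63 in the knockout and 1.61 in the wild type), where 29.2% of all tested genes were called higher in the knockout and 28.6% in the wild type. The receptor-proximal feedback inhibitor SOCS1 rose most, by 8.10 (SE 0.14, adjusted p = 7.6e-31) in the knockout and 7.72 (SE 0.14, adjusted p = 1.1e-29) in the wild type. IRF1 rose by 4.35 in the knockout and 4.83 in the wild type. The receptor chain IFNGR1 was the list member that fell, by 0.52 in the knockout and 0.46 in the wild type.

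Several of these signalling genes were already higher in the untreated knockout. There, 10 of the 16 were higher and 2 lower (median 0.29), where 25.4% of all tested genes were called higher and 24.8% lower. Among the higher ones were IRF1 (log2 fold change 0.70, SE 0.04, adjusted p = 2.7e-15), JAK2 (0.66, SE 0.05, adjusted p = 2.4e-12) and the feedback inhibitor SOCS3 (0.80, SE 0.09, adjusted p = 1.3e-08). The repressor IRF2 (-0.17, SE 0.05, adjusted p = 0.0025) and the phosphatase PTPN6 (-0.34, SE 0.04, adjusted p = 8.8e-08) were lower. GBP3 and GBP4 moved in the same direction as IRF1 and JAK2 in these libraries and GBP1 in the opposite one.

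With IFN-γ, 10 of the 16 were higher and 3 lower in the knockout (median 0.17). Over all tested genes, 22.9% were called higher and 24.3% lower. The 10 were not all the same genes as without IFN-γ. IRF8 and IRF9 were among the higher only without it, and IRF2 and SOCS1 only with it. IRF8 turned from higher without IFN-γ to lower with it, and IRF2 from lower to higher. The largest rise was that of USP18 (1.30, SE 0.10, adjusted p = 3.8e-12). USP18 is known as an inhibitor at the receptor of type I interferons, not at that of IFN-γ. The next largest was IFNGR2, a chain of the IFN-γ receptor (0.55, SE 0.05, adjusted p = 1.2e-11). The largest falls were those of STAT2 (-0.28, SE 0.04, adjusted p = 6.1e-08) and IRF8 (-0.18, SE 0.04, adjusted p = 0.00129). IRF1 was higher by 0.22 (SE 0.03, adjusted p = 2.4e-06), less than without IFN-γ. The difference of responses was lower in the knockout for IRF1 (-0.47, SE 0.05, adjusted p = 7.2e-08) and IRF8 (-0.71, SE 0.07, adjusted p = 8.1e-10). They were among 5 lower and 3 higher of the list, against 7.86% lower and 7.61% higher of all tested genes. The 8 calls of the list fell to 5 without untreated knockout replicate 3 or without untreated wild-type replicate 2 or 3. IRF1, IRF8, JAK2, SOCS3 and STAT2 thus had the direction of GBP4, and IRF2, PTPN6 and USP18 that of GBP1 and GBP2. A link between these genes and the GBP genes was not tested.

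**Figure D5:**
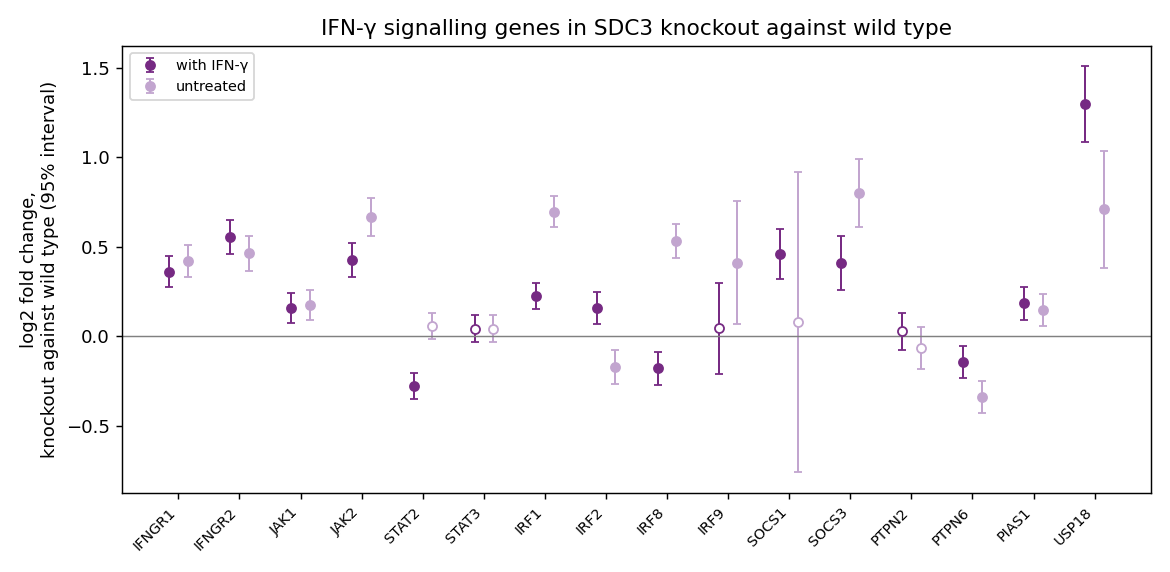
Log2 fold changes with 95% intervals, knockout against wild type, of the 16 genes listed around IFN-γ signalling, with and without IFN-γ. Open circles were not called. IRF1 and JAK2 are higher in the knockout in both treatments, with the larger difference in untreated cells, and USP18 has the largest value with IFN-γ (1.30).

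Most of the effectors that work at GBP coats, a list of 26 genes with inflammatory caspases, apolipoproteins L, ubiquitin ligases and autophagy receptors, rose with IFN-γ. In the knockout 20 were higher and 1 lower (median log2 fold change 1.12), and in the wild type 19 were higher and 1 lower (1.29), against 29.2% and 28.6% of all tested genes called higher. The lower one was the cytokine gene IL18 in the knockout (-0.40, SE 0.08, adjusted p = 3.4e-05) and NINJ1, a gene for a protein of membrane rupture, in the wild type (-0.13, SE 0.05, adjusted p = 0.0229). AIM2 rose most, by 6.50 (SE 0.07, adjusted p = 4.3e-36) in the knockout and 6.36 (SE 0.08, adjusted p = 1.5e-34) in wild-type cells, and CASP4, which the GBP1 coat activates, rose by 1.73 and 1.72. With IFN-γ, 15 were higher and 2 lower in the knockout than in the wild type (median 0.23), where 22.9% of all tested genes were called higher and 24.3% lower. AIM2 (0.91, SE 0.05, adjusted p = 1.5e-16) and APOL1 (0.77, SE 0.04, adjusted p = 2.4e-17) had the largest rises, and also higher were APOL3, which attacks the membranes of coated bacteria (0.71, SE 0.06, adjusted p = 6.9e-11), and CASP4 (0.34, SE 0.04, adjusted p = 4.5e-08). The inflammasome sensor NLRP3 (-0.22, SE 0.04, adjusted p = 9e-05) and the autophagy receptor CALCOCO2 (-0.16, SE 0.04, adjusted p = 0.00304) were the 2 lower.

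In untreated cells 17 of the 26 effectors were higher and 2 lower in the knockout (median 0.31), against 25.4% and 24.8% of all tested genes. The 2 lower were the autophagy receptor OPTN (-0.57, SE 0.05, adjusted p = 8.9e-12) and APOL2 (-0.40, SE 0.05, adjusted p = 4.4e-08), and both were higher in the knockout with IFN-γ (0.31 and 0.36). They thus had the pattern of GBP1, with differences of responses of 0.89 (SE 0.06, adjusted p = 4.1e-12) for OPTN and 0.75 (SE 0.06, adjusted p = 1.7e-10) for APOL2. In that test 5 effectors were higher and 4 lower (median -0.00), against 7.61% and 7.86% of all tested genes. The 9 calls fell to 5 without untreated knockout replicate 1 or treated wild-type replicate 1.

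Among 14 genes of a list drawn up around the lipid anchoring and phosphorylation of GBPs, most responses were small. IFN-γ raised 9 and lowered 2 in the knockout (median 0.20) and raised 7 and lowered 3 in the wild type (0.08). Over all tested genes IFN-γ raised 29.2% and lowered 31.8% in the knockout and raised 28.6% and lowered 27.9% in the wild type. The largest was PIM1, a kinase that phosphorylates GBP1 and keeps it inactive in the cytosol, at 2.87 (SE 0.04, adjusted p = 4.8e-33) in the knockout and 2.48 (SE 0.04, adjusted p = 2.3e-31) in the wild type. The farnesyltransferase subunits FNTA (-0.05) and FNTB (0.02) were not called between genotypes with IFN-γ. In that comparison 3 were higher and 3 lower (median 0.06), close to the 22.9% and 24.3% of all tested genes, with YWHAE, an adaptor for phosphorylated proteins, at -0.63 (SE 0.08, adjusted p = 5.5e-08). Without IFN-γ 2 were higher and 8 lower (median -0.16), against 25.4% and 24.8% of all tested genes. The responses differed for 5, all larger in the knockout (median 0.07), against 7.61% of all tested genes, among them PIM1 (0.39, SE 0.05, adjusted p = 2.8e-06).

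Of 13 genes listed as related large GTPases of the dynamin and immunity-related families, 12 could be tested and IRGM could not. RNF213 on this list is not such a GTPase but a ubiquitin ligase with ATPase domains. It is counted among the higher genes in each comparison below. IFN-γ raised 7 and lowered 4 in either genotype (median 0.30 in the knockout, 0.26 in the wild type), where 29.2% of all tested genes were called higher and 31.8% lower in the knockout and 28.6% and 27.9% in the wild type. The antiviral dynamin MX1 rose most, by 5.66 in the knockout and 6.22 in the wild type. With IFN-γ, 6 were higher and 2 lower in the knockout (median 0.07), against 22.9% and 24.3% of all tested genes, led by MX1 (1.51, SE 0.05, adjusted p = 1.6e-20) and MX2 (0.93, SE 0.04, adjusted p = 1.7e-17). The mitochondrial fission GTPase DNM1L was lower (-0.45, SE 0.05, adjusted p = 1e-08). Without IFN-γ, 8 were higher and 3 lower (median 0.16), against 25.4% and 24.8% of all tested genes, with MX1 at 2.07 (SE 0.11, adjusted p = 3.3e-16). In the difference of responses 3 were higher and 1 lower (median 0.02), against 7.61% and 7.86% of all tested genes.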

How the data were processed

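Per the labels, the 12 RNA-seq libraries were poly(A)-selected and strand-marked, with 1 µg of RNA from THP-1 cells after PMA as input. What the authors deposited are read counts for each gene on hg38, made with featureCounts 2.0.3 on exons of paired reads, with primary alignments only and chimeric pairs left out, per the file headers. The headers give no strand option and no option that counts a pair once, and 71.8% of counts from 1 to 19 were even. Per the submitters' processing notes, the tools also included STAR 2.7.10b, fastp 0.23.2, Subread, BWA, MultiQC 1.13, FastQC and Picard 2.27.5; the annotation release is not given in the sources used here. Symbols were matched by Ensembl identifier for 41445 of 58051 genes.

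From the counts, CPM on TMM-scaled library sizes, FPKM (CPM per kilobase of exon) and log2 fold changes were computed here. The main test was edgeR 4.0.16 (R 4.3.3), quasi-likelihood, on the 17119 genes kept by filterByExpr, fitted once to the 12 libraries with a term for group alone, with Benjamini-Hochberg adjustment over all tested genes, two-sided. SEs are the log2 fold change divided by the square root of F. Intervals of count ratios are exact conditional binomial ones. Between replicates, chi-square per degree of freedom was 2.9 to 7.58, so no library was a copy of another. The fits were tested on simulated data.

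The members, the 4 gene lists and the naming rule were chosen with earlier results of these data known. Results that need 2 further genes are not reported here, and the signalling list is counted without 1 of them. The rule named all 7 members, the largest called changes of each list or a member by its role, the 3 genes with the nearest profile outside the MHC region of chromosome 6, and the 10 tested neighbours on either side. Alternatives were DESeq2 1.42.0, upper-quartile scaling, library totals alone, other size factors, a fit limited to the compared libraries, a filter of 5 CPM in 3 libraries or no filter, a replicate block, a log2 fold change of at least 1 and each library left out. Python 3.11.15 (pandas 2.3.3, numpy 2.4.6, scipy 1.17.1, matplotlib 3.10.9) drew tables and plots.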

Additional observations from a re-analysis of the deposited data

Results flagged for a closer look

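For 3 GBP genes the IFN-γ response differed between the genotypes by a direct test, the interaction term of edgeR's fit. The response of GBP1 was larger in the knockout than in the wild type by 1.40 on the log2 scale, that of GBP2 was larger by 0.39, and that of GBP4 differed by -0.42, a smaller response in the knockout. Each kept its sign when any library was left out, over 1.31 to 1.49 for GBP1, 0.36 to 0.42 for GBP2 and -0.44 to -0.38 for GBP4. GBP1 was the member with a lower level in the untreated knockout (7.53 ± 0.756 CPM in the knockout, 15.1 ± 1.63 CPM in the wild type) and a higher one in the treated knockout (3250 ± 83.7 CPM in the knockout, 2450.5 ± 81.3 CPM in the wild type; SD, n = 3).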

How the results depend on the processing

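Requiring a log2 fold change of at least 1 left 3327 of 10456 calls for IFN-γ in the knockout, 2776 of 9666 in the wild type, 1598 of 8072 for the genotypes with IFN-γ, 1562 of 8583 without it and 458 of 2647 for the difference of responses. The members called were then 1 with IFN-γ (GBP6), 2 without it (GBP4 and GBP6) and 1 for the difference (GBP1). With only the compared libraries, 3 members were called without IFN-γ, and with a library left out 3 to 5. Leaving out libraries turned the sign of 3 values that were not called: GBP2 without IFN-γ ranged from -0.0304 to 0.0303, and the difference of responses from -2.79 to 0.27 for GBP6 and from -0.72 to 0.30 for GBP7. Called members kept their direction under every alternative tried; GBP6 was not tested at 5 CPM or more. Upper-quartile scaling moved the median gene by -0.17 and -0.13 for IFN-γ in the knockout and the wild type.

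Replicate numbers did not pair the libraries: deviations of same-numbered libraries correlated at -0.191 to 0.276, and 5 of 18 were best with their own number. With a replicate block the members called were 7, 7, 7, 5 and 3 in the comparisons as listed above, with no member's call changed, and GBP5 with IFN-γ had an adjusted p of 0.0321. Depth limited GBP6 and untreated GBP7.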
